A study of Dugesia japonica with 4 samples.

Results

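Translation factors and aminoacyl-tRNA synthetases were examined in regrown and control heads of the planarian Dugesia japonica, a freshwater flatworm that can rebuild a lost head. Members were the assembled transcript features whose deposited protein name named a translation initiation factor or eIF, elongation factor 1, 2 or Tu, a peptide chain release factor, or a tRNA ligase or tRNA synthetase. The rule found 62 of 15850 features, 31 translation factors on 26 contigs and 31 tRNA synthetase features on 18 contigs. The 2 BaCl2 libraries came from heads amputated after 35 days in 1 mM BaCl2 at 10 °C, by which time the worms carried regenerated heads insensitive to it. The 2 control libraries came from heads labelled as control and as wild type, for which the labels give neither an exposure nor a regrowth. Each library pooled 25 worms. The series' design text speaks of 3 biological replicates per treatment, of which 2 libraries a group are used here. It also names worms starved for 35 days, which are not analysed here, and neither the feeding of the worms used here nor the temperature of the controls is given. Barium blocks potassium channels, and the effects of barium, of head regrowth, of time in culture, of temperature and of feeding cannot be told apart in this design. In RNA from whole heads, fewer cells of a type and less RNA per cell cannot be told apart either.

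Protein synthesis starts when initiation factors bring the messenger RNA, the initiator tRNA and the ribosomal subunits together at a start codon. Elongation factors then deliver charged tRNAs to the ribosome and move it along the message. Aminoacyl-tRNA synthetases supply those charged tRNAs, each enzyme joining its amino acid to the matching tRNAs. In planarians the dividing stem cells, called neoblasts, replace every cell type and build the regrown head.

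Expression was given as FPKM, which corrects fragment numbers for the length of the feature and the size of the library, and fragment counts were recovered from it. The libraries held 3395482 and 6875650 fragments in the BaCl2 group, against 5901128 and 8304630 in the control group. All 62 members passed the filter of a mean of at least 1 FPKM, and they held between 11 and 40821 fragments over the 4 libraries (median 864). A total of 47 members had at least 100 fragments, 25 factors and 22 synthetases, and the results below rest mainly on these. The other 15 were short or thinly covered, and 8 members were under 200 nt, where a single fragment stands for a large FPKM value (22.3 and 13.2 FPKM in the BaCl2 libraries and 17.1 and 11.1 FPKM in the control libraries for a feature of 100 nt). The choice of scale matters for small differences. Dividing by library totals in place of the deposited scaling moved the log2 folds of all features up by a median of 0.18, and median-ratio rescaling moved them up by 0.09. Folds are given on the log2(FPKM + 1) scale as BaCl2 over control unless stated otherwise.

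No member passed the test. In the limma fit across 15683 features (adjusted p under 0.05), 20 features were called, 0.128% of those tested, and 0 of the 31 factors and 0 of the 31 synthetases were among them. At an unadjusted p under 0.05 the counts were 5 factors and 5 synthetases, beside 11.3% of all features. In the limma fit on the 7982 features with at least 100 fragments, 113 features were called (1.42%), again with 0 of 25 factors and 0 of 22 synthetases, while 4 factors and 7 synthetases had an unadjusted p under 0.05, beside 18.9% of all features. By the authors' deposited table, features with a q-value under 0.05 made up 1.29% (lower in BaCl2 heads) and 0.688% (higher), and 0 members were in either set. The members' levels did lean towards lower values in BaCl2 heads, and the lean was larger in the synthetases than in the factors. It is given as a description, and the difference between the synthetases and the factors was not tested.

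Among the synthetases, 28 of 31 had a log2 fold below 0, with a median of -0.58, or -0.55 with a prolyl-tRNA synthetase feature, which had no BaCl2 fragment, set at a limit of 3 fragments per BaCl2 library. Among the factors, 26 of 31 were below 0, with a median of -0.32. Over all 15683 features 52.9% were below 0 and the median was -0.06. With at least 100 fragments, 20 of 22 synthetases were below 0 with a median of -0.50, 20 of 25 factors with a median of -0.27, and 60.9% of all features with a median of -0.15. Both BaCl2 libraries lay below both control libraries in 19 of those 22 synthetases and 13 of those 25 factors, beside 36.3% of all features. The same count on fragments per 1000000 of the library total (FPM) was 16 synthetases and 10 factors, beside 24.6% of all features. Both BaCl2 libraries lay above both controls in 0 synthetases and 2 factors in FPKM (19.1% of all features), and in 0 synthetases and 6 factors on library totals (29.3%). Over all 62 members the groups did not overlap in 43 in FPKM: 23 synthetases and 17 factors below the controls (27.4% of all features) and 1 synthetase and 2 factors above them (21.5%). On library totals they did not overlap in 41: 20 synthetases and 14 factors below the controls (19.9%) and 1 synthetase and 6 factors above them (28.7%).

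Scaling moved all of these medians together. With limma voom on library totals, which tested 28 synthetases and 30 factors, the median log2 fold was -0.36 for the synthetases and -0.11 for the factors, beside 0.11 for all features. Taken from the median of all features tested, the synthetases lay at -0.52 and the factors at -0.26 on log2(FPKM + 1), at -0.35 and -0.12 with at least 100 fragments, and at -0.47 and -0.22 with voom on library totals. The synthetase median was thus the lower of both on each scale.

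**Figure D1:**
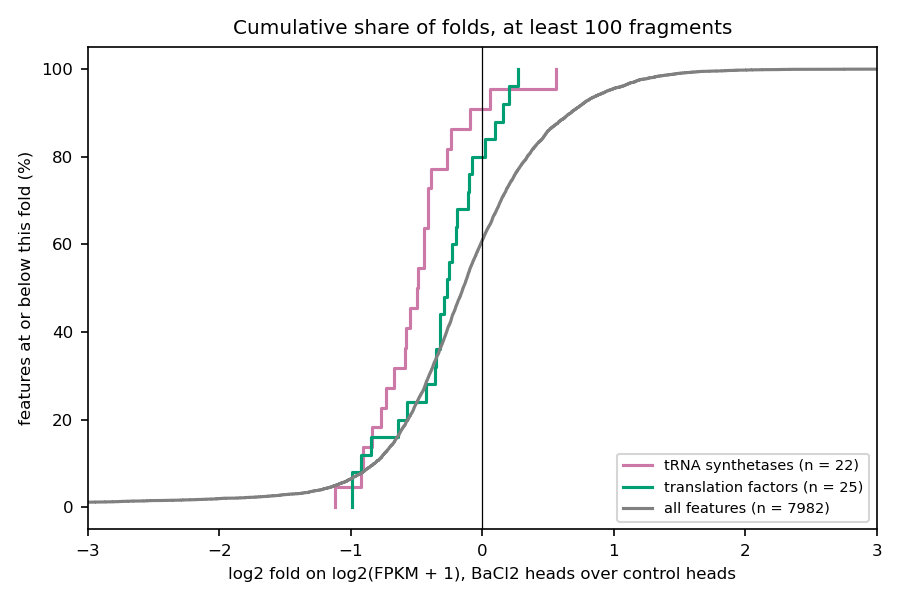
Cumulative share of features (%) at or below each log2 fold of BaCl2 over control heads on the log2(FPKM + 1) scale, for the 22 tRNA synthetases, the 25 translation factors and all 7982 features with at least 100 fragments (folds beyond 3 in either direction not shown). The synthetase curve lies left of the curve of all features over most of its height, with its median at -0.50, against -0.15 for all features, and the factor curve has its median at -0.27.

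The lean differed in size between library pairs. For the synthetases with at least 100 fragments, the median log2 ratio of FPKM was -0.67 for BaCl2 replicate 1 over control replicate 1 and -0.63 over control replicate 2. For BaCl2 replicate 2 it was -0.43 and -0.31 over the same controls. On library totals the 4 synthetase medians lay closer together, at -0.29, -0.38, -0.32 and -0.31 in the same order. For the factors the FPKM medians were -0.47, -0.38, -0.17 and -0.08, and on library totals -0.06, -0.13, -0.02 and -0.06. The medians of all features also changed with the pair. They were -0.24, -0.23, -0.07 and -0.07 in FPKM, and 0.15, 0.03, 0.08 and -0.06 on library totals. For BaCl2 replicate 2 over control replicate 2, the factors thus lay level with all features, while the synthetases lay below them. BaCl2 replicate 1, the library with the fewest fragments, was the lower of the BaCl2 libraries in 35 of the 47 members in FPKM, beside 62.2% of all features. The part of this library's depth or scaling in the members' folds was not tested.

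Calls among the members depended on the fit. The limma voom fit on library totals called 214 of 14083 features (1.52%), among them 1 factor, eIF5B, which was lower in BaCl2 heads (0.809% of features were called lower). The voom fit on the deposited scale called 331 features (2.35%) and 0 members. At an unadjusted p under 0.05, voom gave 5 factors and 6 synthetases on library totals, beside 15.8% of all features, and 8 of each on the deposited scale, beside 16.6%. In the fit on features with at least 100 fragments, leaving out BaCl2 replicate 2 brought the calls to 957 features (12.0%), 720 of them lower in BaCl2 heads (9.02%), among them 4 factors and 4 synthetases. These were eIF5B, eIF3 subunit B, elongation factor 2 kinase and piece 4 of the elongation factor Tu GTP binding contig, and the long pieces of the cysteinyl and alanyl enzymes, the lysyl enzyme and piece 1 of the tyrosyl enzyme. That fit rests on BaCl2 replicate 1 alone, which is assumed to vary like the control libraries. Leaving out any of the other libraries gave 225 to 347 calls and 0 members.

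Of the factors that act at the start codon and in subunit joining, eIF5B, the GTPase that joins the large ribosomal subunit, stood furthest below the controls. The eIF5B feature (TCONS_00011491, 2610 nt) had 33.4 and 47.7 FPKM in BaCl2 heads, against 84.5 and 76.2 FPKM in control heads. The groups did not overlap, and the means were 40.5 ± 10.2 FPKM in BaCl2 heads and 80.3 ± 5.86 FPKM in control heads (SD, n = 2 each). Its log2 fold was -0.99 (SE 0.33, limma adjusted p = 0.441), and the adjusted p was 0.168 in the limma fit with at least 100 fragments. On library totals eIF5B had 407 and 484 FPM in BaCl2 heads, against 773 and 762 in control heads, and limma voom gave a log2 fold of -0.78 (SE 0.16, adjusted p = 0.0435). In the authors' deposited table eIF5B had a log2 fold of -0.99 and a q-value of 0.0774. Its call thus holds in 1 of these fits.

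The other factors of this group differed less. eIF1A, which helps the small subunit scan for the start codon, was among the most abundant factors. Its feature (TCONS_00000432) had 346 and 415 FPKM in BaCl2 heads, against 348 and 359 FPKM in control heads, and the groups overlapped. Its log2 fold of 0.10 (SE 0.30) was 0.32 on library totals, where both BaCl2 libraries lay above both controls. eIF5A, which carries the modified amino acid hypusine and helps ribosomes through difficult stretches, had 70.1 and 105 FPKM in BaCl2 heads, against 107 and 107 FPKM in control heads (TCONS_00002002). Here only BaCl2 replicate 1 stood clearly apart, and on library totals the groups overlapped. eIF6, which keeps the ribosomal subunits from joining too early, had 22.7 and 27.2 FPKM in BaCl2 heads, against 30.4 and 31.0 FPKM in control heads (TCONS_00002729, log2 fold -0.29, SE 0.28).

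The eIF2 system brings the initiator tRNA to the ribosome. A feature named eIF2, with no subunit given (TCONS_00006327), had 87.6 and 102 FPKM in BaCl2 heads, against 94.6 and 92.6 FPKM in control heads, so the groups overlapped (log2 fold 0.02, SE 0.29). The alpha subunit of eIF2B, the exchange factor that recharges eIF2 with GTP, was lower in both BaCl2 libraries (TCONS_00009933). It had 30.0 and 40.3 FPKM in BaCl2 heads, against 53.7 and 50.6 FPKM in control heads, a log2 fold of -0.57 (SE 0.31, limma adjusted p = 0.535). eIF2B alpha lay below the controls on library totals too, with 49.8 and 55.7 FPM in BaCl2 heads, against 66.9 and 69.0 in control heads.

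eIF3, a complex of many subunits that binds the small ribosomal subunit and holds other factors there, was represented by 12 features, 11 of them with at least 100 fragments. Log2 folds below 0 were found in 9 of the 11 (60.9% of all features), with a median of -0.25 (-0.15 for all features). Both BaCl2 libraries lay below both controls in 5 of them in FPKM (36.3% of all features) and in 3 on library totals (24.6%). They lay above both controls in 1 in FPKM (19.1% of all features) and in 3 on library totals (29.3%). Subunit B, a core scaffold subunit, was the furthest below its controls. It had 21.7 and 33.2 FPKM in BaCl2 heads, against 44.1 and 41.0 FPKM in control heads (TCONS_00006985, log2 fold -0.64, SE 0.35, limma adjusted p = 0.533). Subunit D, which can itself bind the messenger RNA cap in mammals, had 42.3 and 69.2 FPKM in BaCl2 heads, against 73.0 and 66.2 FPKM in control heads (TCONS_00009628), and the groups overlapped because BaCl2 replicate 2 reached the control range. Subunit K was nearly level, with 46.5 and 56.0 FPKM in BaCl2 heads, against 54.4 and 53.6 FPKM in control heads (TCONS_00003468). The feature named subunit 5, an older name of subunit F, had 30.6 and 30.2 FPKM in BaCl2 heads, against 25.2 and 29.1 FPKM in control heads (TCONS_00003044, log2 fold 0.16, SE 0.27). Subunit 5 was the only eIF3 feature above both controls in FPKM.

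Among the remaining eIF3 features, the one whose name gives no subunit letter (TCONS_00002297) had 71.7 and 87.7 FPKM in BaCl2 heads, against 106 and 96.5 FPKM in control heads. Subunit M came as 2 pieces of 1 contig. Its longer piece 1 (756 nt, TCONS_00001919) had 35.8 and 41.4 FPKM in BaCl2 heads, against 49.4 and 43.9 FPKM in control heads. Its piece 2 (236 nt, TCONS_00001920) had 32.0 and 32.5 FPKM in BaCl2 heads, against 35.9 and 21.6 FPKM in control heads, where the controls lay on either side. The folds of the pieces therefore had opposite signs, -0.27 and 0.20. Features for subunits E, G, I and L had log2 folds of -0.20 to -0.32. The feature for subunit C had 62 fragments in all and a log2 fold of -1.30 (SE 0.81).

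Cap binding was represented by 1 member, an eIF4E1-like feature (TCONS_00001157, 442 nt), eIF4E being the protein that binds the 5′ cap of messenger RNAs. It had 22.5 and 21.3 FPKM in BaCl2 heads, against 44.0 and 40.6 FPKM in control heads. The libraries of each group lay close together and the groups were well apart, with means of 21.9 ± 0.886 FPKM in BaCl2 heads and 42.3 ± 2.45 FPKM in control heads (SD, n = 2 each). The log2 fold was -0.92 (SE 0.27), with a limma adjusted p of 0.413, of 0.149 with at least 100 fragments and of 0.193 in limma voom on library totals. Behind it stood 93 and 148 fragments in BaCl2 heads, against 237 and 336 in control heads.

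**Figure D2:**
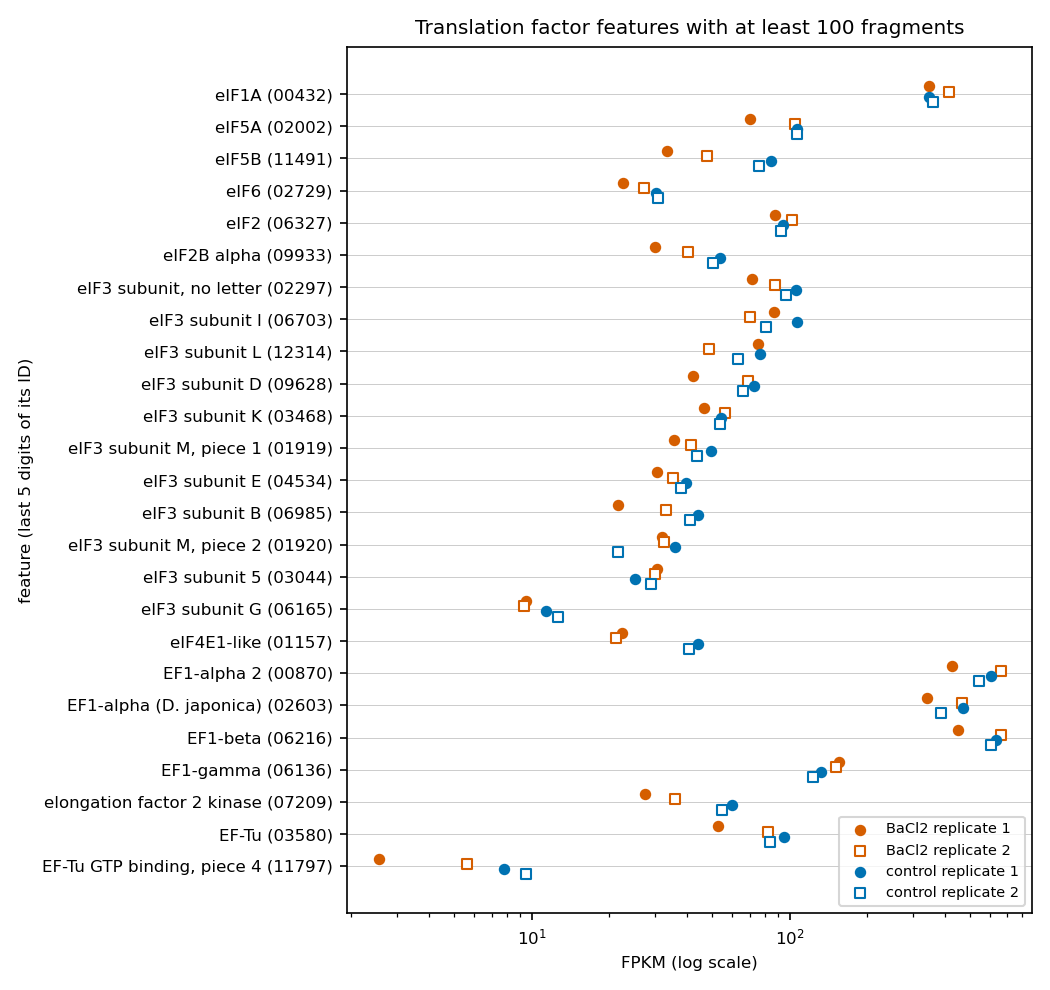
FPKM (log axis) of the 25 translation factor features with at least 100 fragments in each library, BaCl2 libraries in orange and control libraries in blue, filled for replicate 1 and open for replicate 2. eIF5B, the eIF4E1-like feature and elongation factor 2 kinase show both BaCl2 points well left of both control points, while the features of elongation factor 1 alpha and beta overlap.

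Among the members with at least 100 fragments, those of elongation factor 1 alpha and beta had the highest mean FPKM. They differed little between the groups. Elongation factor 1 alpha (EF1-alpha), the GTPase that delivers charged tRNAs to the ribosome, was spread over 4 features on 3 contigs. The longest, 1145 nt, was annotated from D. japonica itself (TCONS_00002603) and had 341 and 467 FPKM in BaCl2 heads, against 472 and 386 FPKM in control heads. The feature named elongation factor 1 alpha 2 (TCONS_00000870) had 427 and 660 FPKM in BaCl2 heads, against 605 and 541 FPKM in control heads. In both features the groups overlapped, with BaCl2 replicate 1 the lowest library, and their log2 folds of -0.10 (SE 0.35) and -0.11 (SE 0.38) turned to 0.13 and 0.12 on library totals. The other EF1-alpha features, 2 short pieces of another contig, were at a far lower level. Piece 1 (263 nt, TCONS_00002350) had 3 and 3 fragments in BaCl2 heads, against 22 and 22 in control heads, and piece 2 (138 nt, TCONS_00002351) had 0 and 1 fragments, against 4 and 12. Copies of EF1-alpha are alike in sequence, so how reads were divided among these features is uncertain.

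EF1-beta and EF1-gamma belong to the exchange complex that recharges EF1-alpha with GTP. EF1-beta had 449 and 660 FPKM in BaCl2 heads, against 632 and 606 FPKM in control heads (TCONS_00006216), and the groups overlapped. The log2 fold of EF1-beta was -0.19 (SE 0.36) and 0.04 on library totals. EF1-gamma was the member with the highest log2 fold among the factors. It had 156 and 152 FPKM in BaCl2 heads, against 132 and 123 FPKM in control heads (TCONS_00006136), with a log2 fold of 0.27 (SE 0.28, limma adjusted p = 0.688). Both BaCl2 libraries lay above both controls on library totals as well, with 806 and 651 FPM, against 509 and 520, and a limma voom log2 fold of 0.48 (SE 0.17, adjusted p = 0.206).

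No member was named as elongation factor 2 itself or as a release factor. The rule brought in elongation factor 2 kinase (TCONS_00007209, 2619 nt), which phosphorylates elongation factor 2 and thereby slows elongation. The kinase had 27.5 and 35.9 FPKM in BaCl2 heads, against 59.9 and 54.8 FPKM in control heads, without overlap. Its log2 fold was -0.85 (SE 0.30, limma adjusted p = 0.446), and limma voom on library totals gave -0.64 (SE 0.16, adjusted p = 0.0837). On that scale it had 336 and 366 FPM in BaCl2 heads, against 550 and 550 in control heads. Elongation factor Tu (EF-Tu), which in bacteria and mitochondria does what EF1-alpha does in the cytosol, had 52.7 and 82.3 FPKM in BaCl2 heads, against 95.0 and 84.0 FPKM in control heads (TCONS_00003580, log2 fold -0.43, SE 0.37). BaCl2 replicate 2 lay close to the lower control. A further contig carried 4 short features named elongation factor Tu GTP binding, and the name does not say which protein this is. The best covered, piece 4 (TCONS_00011797), had 2.55 and 5.59 FPKM in BaCl2 heads, against 7.83 and 9.5 FPKM in control heads, from 13 and 48 fragments, against 52 and 97. Pieces 1, 2 and 3 held 69, 60 and 32 fragments over the 4 libraries, with log2 folds of -1.05, -0.93 and -1.49.

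The 31 tRNA synthetase features covered 14 amino acids, and no member carried a name for the enzymes of arginine, glutamine, glutamate, glycine, methionine or tryptophan. Most features were pieces of longer transcripts, so fragments were summed per amino acid and are given in FPM, which is not corrected for length. Over all 31 features the sums were 1990 and 2290 FPM in BaCl2 heads, against 2820 and 3030 in control heads. Both BaCl2 libraries lay below both controls, and the ratio of the means was 0.731 (log2 -0.45), or 0.635 (log2 -0.65) on the deposited scale. The sum of the 31 factors was 7630 and 8460 FPM in BaCl2 heads, against 8120 and 8120 in control heads, so the groups overlapped (log2 -0.01, and -0.22 on the deposited scale). With 2 libraries against 2, a two-sided exact permutation test cannot give a p below 0.333, and the sums are given as values.

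The mean sum was lower in BaCl2 heads for 13 of the 14 amino acids. For 12 both BaCl2 libraries lay below both controls, beside 19.9% of all single features. On the deposited scale the counts were 14 and 13, beside 27.4% of single features below both controls in FPKM. These counts include proline, whose only feature had 0 and 0 fragments in BaCl2 heads, against 3 and 8 in control heads. Cysteine had the lowest ratio among those with BaCl2 fragments, with sums of 326 and 474 FPM in BaCl2 heads, against 615 and 666 in control heads (log2 -0.68). Alanine followed, with 392 and 461 in BaCl2 heads, against 615 and 671 in control heads (log2 -0.59). Lysine had 138 and 171 in BaCl2 heads, against 221 and 225 in control heads (log2 -0.53). Valine was near level, with 105 and 95.6 in BaCl2 heads, against 103 and 104 in control heads. Asparagine went the other way on this scale, with 32.7 and 36.8 in BaCl2 heads, against 31.9 and 29.7 in control heads (log2 0.17), but its mean was below the controls on the deposited scale (log2 -0.03).

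**Figure D3:**
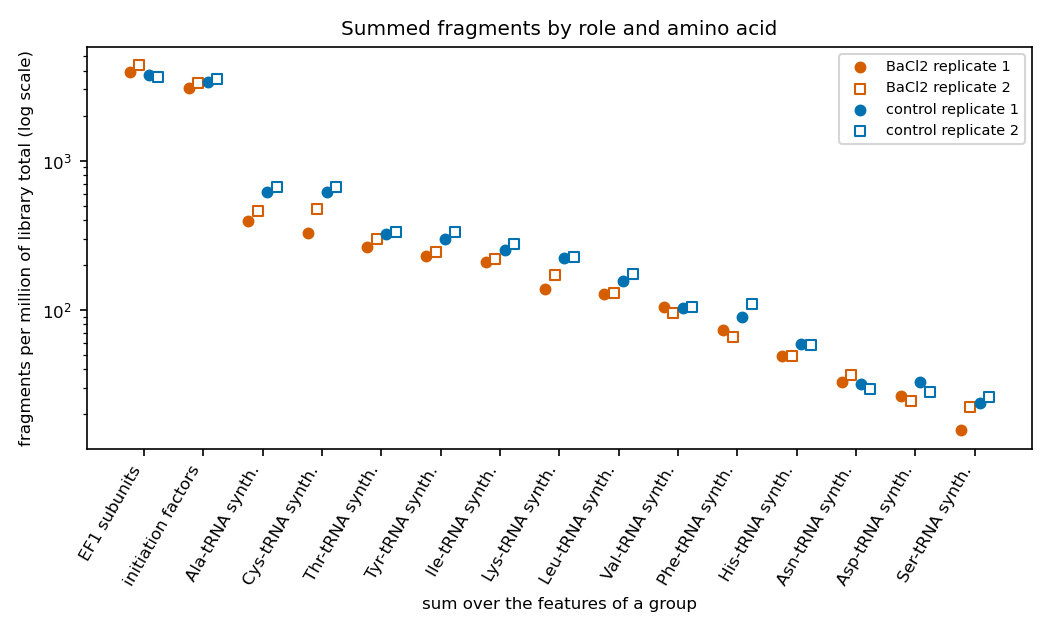
FPM, fragments per 1000000 of the library total (log axis), summed over the features of elongation factor 1 (EF1), of the initiation factors and of the synthetases of each amino acid, with the BaCl2 libraries in orange and the control libraries in blue. Proline is left out because its feature had no BaCl2 fragment. The BaCl2 points lie below the control points for 11 of the 13 amino acids shown, not for valine or asparagine, and above them for the EF1 subunits.

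Synthetases fall into class I and class II, which have unrelated catalytic folds. The 10 class I features (cysteine, isoleucine, leucine, tyrosine and valine) summed to 995 and 1160 FPM in BaCl2 heads, against 1420 and 1550 in control heads (log2 -0.46). The 21 class II features summed to 991 and 1130 in BaCl2 heads, against 1400 and 1480 in control heads (log2 -0.44), so the classes had nearly the same ratio. In mammals some synthetases form one large complex. The 6 features for enzymes of that complex with at least 100 fragments (aspartate, isoleucine, leucine and lysine) had a median log2 fold of -0.52, and the 16 others had -0.47.

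Ratios within a library do not depend on how libraries are scaled. Summed synthetase fragments were 0.507 and 0.526 of the summed EF1 fragments in BaCl2 heads, against 0.747 and 0.836 in control heads. Set against the initiation factors, they were 0.645 and 0.686 in BaCl2 heads, against 0.833 and 0.858 in control heads. The initiation factors were 0.787 and 0.767 of the EF1 sum in BaCl2 heads, against 0.897 and 0.975 in control heads. In each of these ratios both BaCl2 libraries lay below both controls, so the summed levels of synthetases, initiation factors and EF1 differed unequally between the groups. The sums themselves were 3920 and 4360 FPM for EF1 in BaCl2 heads, against 3780 and 3630 in control heads (log2 0.16, but -0.05 on the deposited scale), and 3080 and 3340 for the initiation factors in BaCl2 heads, against 3390 and 3540 in control heads. The lower initiation factor sum was not shared by all 19 features. Within it, eIF5B alone had 407 and 484 FPM in BaCl2 heads, against 773 and 762 in control heads. The mean of eIF5B fell by more than that of the whole sum, which was 3210 FPM in BaCl2 heads and 3460 in control heads. Without eIF5B, the mean initiation factor sum on library totals was thus not lower in BaCl2 heads. Whether the ratios hold without eIF5B was not tested. On library totals 7 of the 19 lay below both controls (19.9% of all features) and 5 above both (28.7%).

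Single synthetase features varied around these sums. Among the class I enzymes, the long piece of cysteinyl-tRNA synthetase (TCONS_00006084, 1716 nt) had 41.9 and 73.6 FPKM in BaCl2 heads, against 106 and 105 FPKM in control heads. Its BaCl2 libraries differed by more than its controls did, but both lay below them (log2 fold -0.91, SE 0.40, limma adjusted p = 0.491). The short piece 2 of the same contig (TCONS_00006085) had 10.4 and 10.0 FPKM in BaCl2 heads, against 16.4 and 17.1 FPKM in control heads. Tyrosyl-tRNA synthetase was found as 2 pieces of 1 contig and as a feature of its own contig. Piece 1 (TCONS_00013072) had 7.79 and 12.5 FPKM in BaCl2 heads, against 21.6 and 17.8 FPKM in control heads (log2 fold -0.92, SE 0.35, limma adjusted p = 0.461). Piece 2 (TCONS_00013073) had 24.9 and 31.2 FPKM in BaCl2 heads, against 40.0 and 44.3 FPKM in control heads, and the feature of its own contig (TCONS_00003622) had 7.86 and 10.4 FPKM, against 14.3 and 10.6 FPKM. All 3 had both BaCl2 libraries below both controls.

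Isoleucyl-tRNA synthetase (TCONS_00012858), at 3547 nt the longest member, had 12.3 and 15.6 FPKM in BaCl2 heads, against 19.8 and 20 FPKM in control heads (log2 fold -0.49, SE 0.28, limma adjusted p = 0.550). Valyl-tRNA synthetase (TCONS_00012429, 3133 nt) had 7.06 and 7.74 FPKM in BaCl2 heads, against 9.29 and 8.56 FPKM in control heads, and its groups overlapped on library totals. Leucyl-tRNA synthetase came as 3 pieces of 1 contig. Piece 1 (2309 nt, TCONS_00012560) had 11.1 and 14.2 FPKM in BaCl2 heads, against 18.6 and 19.0 FPKM in control heads (log2 fold -0.55, SE 0.28). Piece 2 (403 nt, TCONS_00012561) had 4.34 and 2.23 FPKM in BaCl2 heads, against 8.20 and 7.78 FPKM in control heads (log2 fold -1.12, SE 0.38, limma adjusted p = 0.443, or 0.153 with at least 100 fragments). Piece 3 (242 nt, TCONS_00012562) went the other way, with 16 and 10 fragments in BaCl2 heads, against 1 and 4 in control heads (log2 fold 2.27, SE 0.63, limma adjusted p = 0.407). So few fragments carry piece 3 that the sum for leucine followed piece 1.

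**Figure D4:**
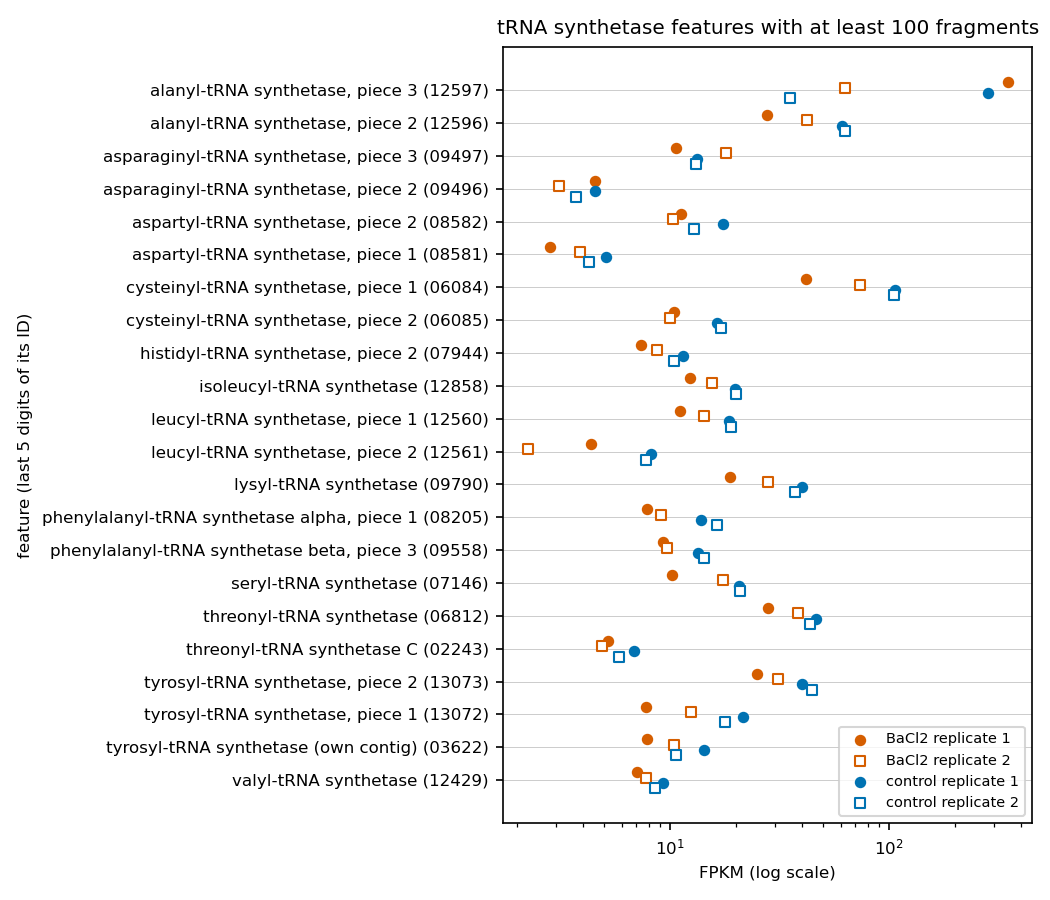
FPKM (log axis) of the 22 tRNA synthetase features with at least 100 fragments in each library, ordered by amino acid, BaCl2 libraries in orange and control libraries in blue, filled for replicate 1 and open for replicate 2. In 19 of the 22 both BaCl2 points lie left of both control points. The exceptions are alanyl piece 3 and asparaginyl pieces 2 and 3.

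Among the class II enzymes, the long piece of alanyl-tRNA synthetase (TCONS_00012596, 2761 nt) had 27.7 and 42.3 FPKM in BaCl2 heads, against 61.1 and 62.9 FPKM in control heads (log2 fold -0.84, SE 0.35, limma adjusted p = 0.476). In the short pieces at either end of the same contig the groups overlapped. Piece 1, with 16 fragments in all, is too thinly covered to show whether it followed the long piece. Piece 3 (173 nt, TCONS_00012597) had 349 and 62.7 FPKM in BaCl2 heads, against 282 and 35.1 FPKM in control heads, so that replicate 1 was the higher library in both groups. Piece 1 (45 nt, TCONS_00012595) had 5 and 0 fragments in BaCl2 heads, against 11 and 0 in control heads, the replicate 2 values being worked out from the pooled table. Lysyl-tRNA synthetase (TCONS_00009790) had 18.8 and 27.9 FPKM in BaCl2 heads, against 40.0 and 37.2 FPKM in control heads (log2 fold -0.73, SE 0.33, limma adjusted p = 0.500). Threonyl-tRNA synthetase (TCONS_00006812) had 28 and 38.5 FPKM in BaCl2 heads, against 46.2 and 43.5 FPKM in control heads. A second threonyl feature, named with the letter C (TCONS_00002243), had 5.19 and 4.87 FPKM in BaCl2 heads, against 6.80 and 5.82 FPKM in control heads.

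Phenylalanyl-tRNA synthetase is built from alpha and beta chains, and the longest features of both lay below the controls. Alpha piece 1 (TCONS_00008205) had 7.87 and 9.05 FPKM in BaCl2 heads, against 13.9 and 16.4 FPKM in control heads (log2 fold -0.77, SE 0.27, limma adjusted p = 0.443). Beta piece 3 (TCONS_00009558) had 9.28 and 9.64 FPKM in BaCl2 heads, against 13.4 and 14.3 FPKM in control heads (log2 fold -0.50, SE 0.25, limma adjusted p = 0.521). The beta chain's short piece 2 (79 nt, TCONS_00009557) had 0 and 1 fragments in BaCl2 heads, against 14 and 10 in control heads. In FPKM this short piece stood at 0 and 31.2 in BaCl2 heads, against 565 and 262 in control heads, far above piece 3 in the controls. With the FPKM of all 3 beta features summed, the log2 fold of the beta chain was -3.85, a sum in which this short piece weighs most. Fragments summed over all 6 phenylalanyl features were 73.3 and 65.6 FPM in BaCl2 heads, against 89.1 and 110 in control heads (log2 -0.52). Seryl-tRNA synthetase (TCONS_00007146) had 10.2 and 17.5 FPKM in BaCl2 heads, against 20.7 and 20.8 FPKM in control heads, with BaCl2 replicate 2 nearer the controls. The aspartyl and histidyl features with at least 100 fragments had log2 folds of -0.39 to -0.44, with both BaCl2 libraries below both controls in FPKM.

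For asparaginyl-tRNA synthetase, the pieces with at least 100 fragments were near level. Piece 2 (TCONS_00009496) had 4.55 and 3.10 FPKM in BaCl2 heads, against 4.52 and 3.70 FPKM in control heads. Piece 3 (TCONS_00009497) had 10.6 and 17.9 FPKM in BaCl2 heads, against 13.3 and 13.1 FPKM in control heads. In both, the controls lay between the BaCl2 libraries, and the log2 folds were -0.09 (SE 0.33) and 0.06 (SE 0.36). The thinly covered piece 1 (110 nt, TCONS_00009495) had 8 and 7 fragments in BaCl2 heads, against 29 and 16 in control heads (log2 fold -1.20, SE 0.71). Prolyl-tRNA synthetase was represented by 1 feature of 154 nt (TCONS_00010783) with 0 and 0 fragments in BaCl2 heads, against 3 and 8 in control heads. A count of 0 allows up to 3 fragments per library, for counting error only, and control replicate 1 was itself at that limit, so no fold is given.

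**Figure D5:**
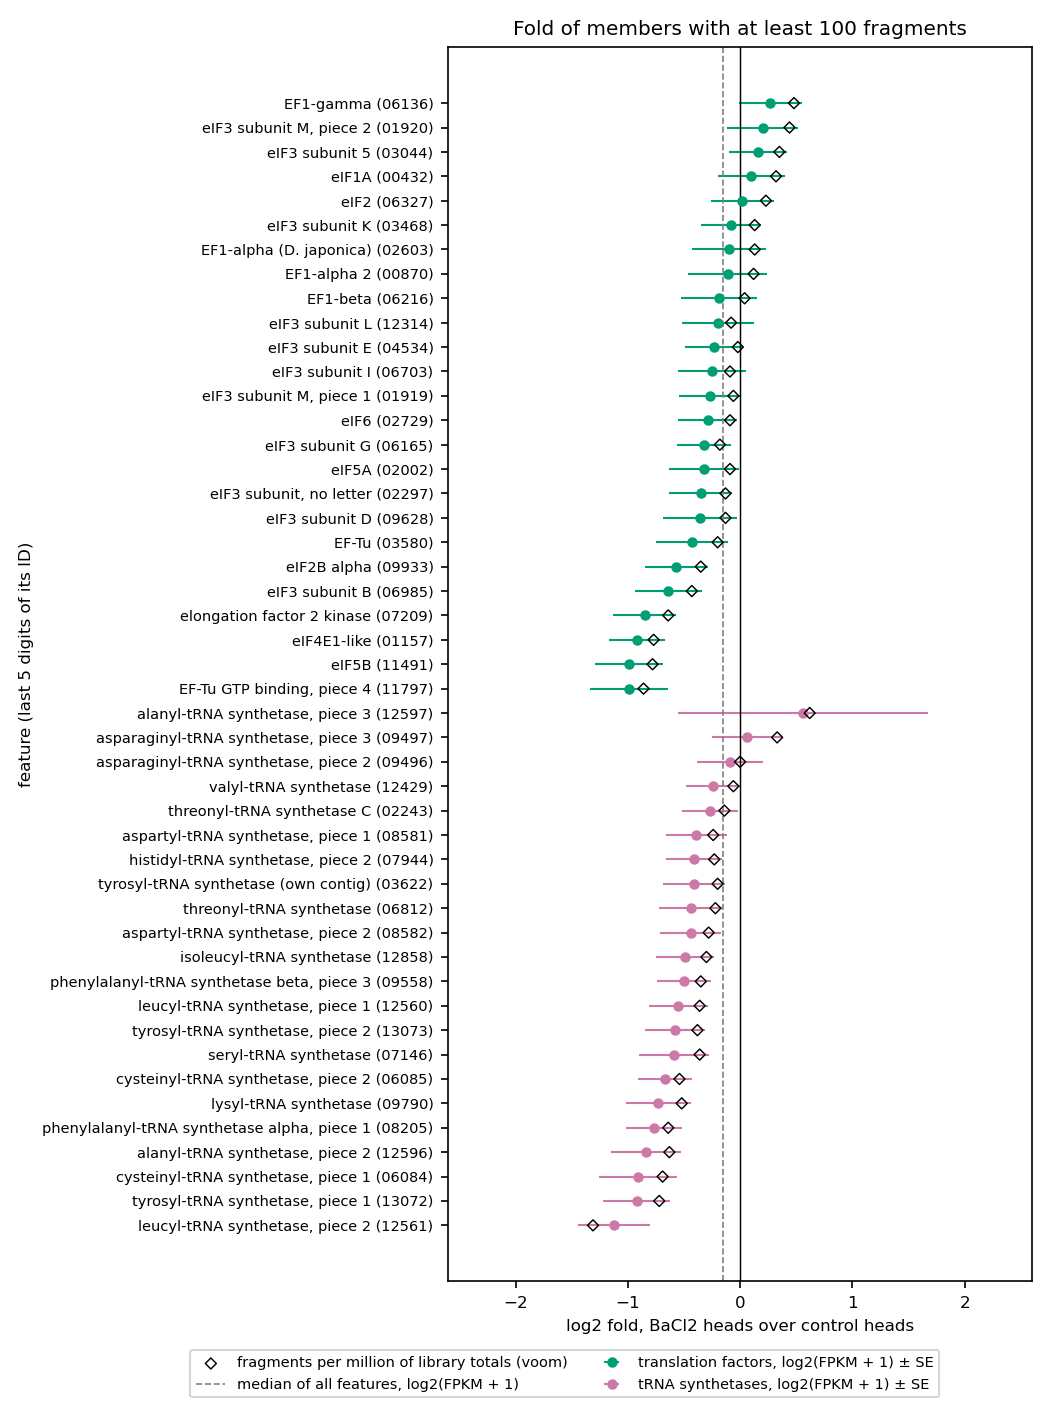
Log2 fold of BaCl2 over control heads for the 47 members with at least 100 fragments, with filled points and bars for the limma estimate on log2(FPKM + 1) ± SE and open diamonds for the limma voom estimate on FPM. The dashed line marks the median of all features with at least 100 fragments, -0.15. Diamonds lie right of the filled points for all of these members but leucyl piece 2, and the alanyl piece 3 has by far the widest error, SE 1.11.

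Other genes of protein synthesis, matched by name from a list, gave 26 features, 16 of them with at least 100 fragments. Log2 folds of these 16 were above 0 in 2 and below 0 in 14 (60.9% of all features), with a median of -0.30 (-0.15 for all features). The limma fit with at least 100 fragments called 0 of them higher and 1 lower (1.22% of all features). The called feature was a cytoplasmic poly(A) binding protein (TCONS_00004122), which coats messenger RNA tails and contacts the initiation machinery. It fell to 5.61 and 2.93 FPKM in BaCl2 heads, against 24.4 and 23.6 FPKM in control heads (log2 fold -2.29, SE 0.38, limma adjusted p = 0.0318 in that fit, and 0.288 in the fit over all features). A feature named nascent polypeptide-associated complex subunit alpha (TCONS_00000539), which binds new protein chains at the ribosome, had 392 and 516 FPKM in BaCl2 heads, against 492 and 451 FPKM in control heads. Signal recognition particle protein (TCONS_00000755) belongs to the particle that takes ribosomes to the endoplasmic reticulum. It had 57.2 and 42.9 FPKM in BaCl2 heads, against 105 and 108 FPKM in control heads (log2 fold -1.08, SE 0.31, limma adjusted p = 0.412). Other features named for this particle did not share the difference. Protein 19 (TCONS_00003528) and SRP72 (TCONS_00008856) had log2 folds of -0.09 (SE 0.27) and -0.22 (SE 0.30), with overlapping groups.

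A further 7 features were translation factors whose names escaped the naming rule. eIF4E (TCONS_00001874) had 24.1 and 27.9 FPKM in BaCl2 heads, against 37.5 and 31.5 FPKM in control heads. eIF2A (TCONS_00003529) had 75.3 and 104 FPKM in BaCl2 heads, against 129 and 124 FPKM in control heads. Both lay below the controls, whereas a feature named elongation factor 1 beta and delta (TCONS_00004511) had 192 and 206 FPKM in BaCl2 heads, against 204 and 199 FPKM in control heads. The remaining 4 were features named eIF4G, the scaffold that joins the cap to the ribosome, and their log2 folds were -0.11 to 0.88. None of the 7 was called in either limma fit.

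Markers of other cell types were set beside the members. In the limma fit over all features, 0 features of the head and neuron, muscle, neoblast, cilia, intestine and mucous gland lists were called. With at least 100 fragments, 2 of 13 cilia and epidermis features were called lower (1.22% of all features) and 0 of the other lists. Summed levels of some lists nevertheless lay apart in these libraries. Head and neuron markers were present, with 0 of the 35 features at 0 in every library, and summed to 520 and 491 FPM in BaCl2 heads, against 253 and 347 in control heads. Muscle markers (31 features) summed to 18600 and 19900 in BaCl2 heads, against 12700 and 11900 in control heads. Neoblast and proliferation markers (17 features) summed to 2030 and 2050 in BaCl2 heads, against 2330 and 2330 in control heads. Of the 11 with at least 100 fragments, 10 had a log2 fold below 0 (60.9% of all features). The median of the 11 was -0.60 (-0.15 for all features). Cilia and epidermis markers (23 features) summed to 1300 and 2320 in BaCl2 heads, against 2540 and 3250 in control heads, with 13 of 13 below 0 and a median of -0.71. Intestine markers (14 features) summed to 2830 and 2910 in BaCl2 heads, against 2340 and 2390 in control heads. Of the 11 with at least 100 fragments, 7 had a log2 fold below 0, with a median of -0.11. Both values were near those of all features (60.9% and -0.15). Mucous gland markers (4 features) summed to 35.6 and 48.3 in BaCl2 heads, against 39.0 and 38.3 in control heads. In the fit over all features, 4 of 4 had a log2 fold below 0 (52.9% of all features), with a median of -0.47. Of the 2 protonephridia markers, 1 was tested and called lower, a cubilin feature of 43 nt with 0 and 0 fragments in BaCl2 heads, against 6 and 10 in control heads (limma adjusted p = 0.0328). The sum of both protonephridia markers went the other way, with 1.77 and 1.75 FPM in BaCl2 heads, against 1.02 and 1.57 in control heads. In the limma fit over all features, the median log2 fold was -0.06 for all features and -0.58 for the synthetases. It was -0.37 for the neoblast, -0.64 for the cilia, -0.47 for the mucous gland and -0.12 for the intestine list. The head and neuron and muscle lists had medians above 0 (0.51 and 0.35). The part of these lists in the synthetase levels was not tested.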

How the data were processed

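Heads of planarians were profiled by RNA sequencing of poly(A) libraries. The authors deposited FPKM values, per the file headers, with a log2 fold, a p-value and a q-value of their own comparison. Bowtie, TopHat, TopHat2 2.0.13, Cuffdiff and Cufflinks 2.2.1 are listed in the submitters' processing notes, with no role given and with a genome build not given in the sources used here.

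Replicate tables were brought to 1 scale through the pooled table, whose values were weighted sums of the replicate values to within 0.1% in 15202 of 15204 features (weights 0.6449 and 0.3577 for BaCl2, 0.6399 and 0.357 for control). Fragments were recovered by modelling fragment lengths (mean of 200 nt, SD of 80 nt, range 28 to 440 nt). Of the checked values, those below 200 fragments, 99.7% to 99.83% per library came out whole to within 0.1.

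The main test was limma 3.58.1 (R 4.3.3; eBayes with trend, two-sided) on log2(FPKM + 1), for features averaging 1 FPKM or more, with Benjamini-Hochberg adjustment over all of them and 2 residual degrees of freedom. Voom fits took features with 20 or more fragments. The limma fits with each filter and with the block, and the voom fit on library totals, were run on simulated data with known changes. Per the labels, replicates are separate pools of worms. Members and lists were chosen with earlier results of these data known. Members were named by a rule: per role the most abundant, for each kind the 6 highest and 6 lowest folds, and all pieces of a repeated name, each with at least 100 fragments. Members beyond the rule were named after their values were seen. Alternatives were the pseudocount, filters, scaling, voom, a replicate block, summing by name and leaving out each library.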

Additional observations from a re-analysis of the deposited data

How the results depend on the processing

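Of 628 alternative values computed for the 45 named members, 604 kept the direction and the side of the threshold, 23 reversed in 11 members and 1, eIF5B with voom on library totals (log2 fold -0.78), newly passed. No setting reversed a median log2 fold. Features called numbered 0 with a pseudocount of 5 (limma, 1876 at an unadjusted p under 0.05), 113 with at least 100 fragments, 214 with voom on library totals (1 factor), 331 with voom on the deposited scale and 0 with each library left out (limma, 1048 to 2407 unadjusted). The median log2 fold of the synthetases was -0.44 with a pseudocount of 5, -0.36 with voom on library totals and -0.48 to -0.66 with a library left out, and that of the factors was -0.11 with voom on library totals and -0.21 to -0.46 with a library left out. Factors above 0 numbered 9 with voom on library totals and 4 to 9 with a library left out; synthetases above 0 numbered 0 with features of 1 name summed and 3 to 6 with a library left out. On the deposited scale the summed fragments gave -0.22 for factors and -0.65 for synthetases.

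On library totals, a setting added after the data were seen, the groups did not overlap in 41 of the 62 members, against 43 in FPKM. The other settings added after the data were seen used at least 100 fragments. Median-ratio rescaling gave 44 calls, with medians of -0.18 for factors and -0.41 for synthetases. Without control replicate 1 there were 225 calls, without control replicate 2 347, without BaCl2 replicate 1 242 (medians -0.13 for factors and -0.40 for synthetases) and without BaCl2 replicate 2 957, of them 4 factors and 4 synthetases; the medians ranged from -0.42 to -0.13 for factors and from -0.65 to -0.40 for synthetases. The replicate block gave 0 calls in the main test (limma, 1575 unadjusted) and, with at least 100 fragments, 948 (11.9% of features, 404 higher and 544 lower, 6.82%). Among the 544 were 1 of 25 factors, piece 4 of the elongation factor Tu GTP binding contig (limma adjusted p = 0.0234), and 2 of 22 synthetases, leucyl piece 2 (0.00932) and tyrosyl piece 1 (0.0428). Same-numbered libraries deviated together only weakly (r = 0.145 across 7982 features, which are not independent), and 2 pairs are too few to call the numbers a pairing.

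Reversed values with voom on library totals were 0.12 for EF1-alpha 2, 0.13 for the D. japonica EF1-alpha, 0.13 for eIF3 subunit K (0.01 with median-ratio rescaling), 0.04 for EF1-beta and 0.0021 for asparaginyl piece 2. With features of 1 name summed they were -0.08 for eIF3 subunit M, -1.05 for asparaginyl and -0.29 for alanyl; moves that kept their sign included -3.85 for phenylalanyl beta (piece 3 alone -0.50), -0.97 for histidyl (piece 2 alone -0.41) and -0.06 for leucyl (piece 1 alone -0.55). With 1 library left out, the log2 fold of eIF1A ranged from -0.03 to 0.23, of EF1-alpha 2 from -0.42 to 0.21, of the D. japonica EF1-alpha from -0.33 to 0.13, of EF1-beta from -0.46 to 0.09, of eIF2 from -0.09 to 0.13, of eIF3 subunit K from -0.21 to 0.05, of subunit L from -0.51 to 0.12, of subunit M piece 2 from -0.15 to 0.55, of asparaginyl piece 2 from -0.31 to 0.12 and piece 3 from -0.29 to 0.41, and of alanyl piece 3 from -0.92 to 2.05. The causes were not tested. Depth limits the short pieces: 15 members had under 100 fragments, and 2 libraries a group leave 2 residual degrees of freedom.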
